A study of Drosophila melanogaster with 12 samples.

Results

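Of the probe sets of the fly array, 52 gave a clear signal in aly mutant testes and almost none in wild-type, Med22RNAi or sa mutant testes. They were chosen from the measured values themselves. A probe set was taken when its mean log2 level was below 4 in each of wild type, Med22RNAi and sa and at least 6 in aly, and 52 of the 18769 Drosophila probe sets on the array met that rule. Of the 52, 46 carry a single gene symbol and stand for 45 genes, of which 44 code for proteins and 15 still have only a CG or CR number. A further 5 have no gene name in the array annotation used here and 1 carries several symbols. Because the aly, wild-type, Med22RNAi and sa values chose these transcripts, their difference between the genotypes is described below without a test. Tests are given only for probe sets that did not meet the rule. They are other probe sets of the same genes, neighbouring genes and the genes of each list other than those among the 52. Leaving out the 52 can lower the counts called higher in these sets, while the shares of all probe sets still include the 52.

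RNA from testes of 1-day-old adult flies kept at 25 °C was hybridized to 12 arrays, 3 for each of 4 genotypes. The 3 control arrays, called wild type here, are labelled with the y,w strain, whereas the study's methods name the published red,e data set as the control, and these accounts were not reconciled. The aly2/aly5P testes lack function of aly, and the sa1/sa2 testes lack function of sa. In Med22RNAi testes a hairpin against Med22, a subunit of the Mediator coactivator, was expressed with UAS-Dicer2 under Bam-Gal4, which drives expression in late spermatogonia and early spermatocytes, and no array measured the driver alone. The Med22RNAi arrays were made for the study and the aly and sa data came from earlier work, so knockdown and array set cannot be told apart. Whether the y,w control arrays also came from earlier work is not stated. Each mutant is 1 combination of alleles, and the strain background and the genotype cannot be told apart either: y, the body-colour gene mutated in the wild-type strain, read 2.18 to 2.25 on the wild-type arrays and 5.06 to 6.35 on the other 9. For all but the Med22RNAi arrays nothing states that the replicates came from separate animals, and a p-value then covers only how far the arrays of a genotype lie apart, which may be technical. The number of arrays limits the precision. The values are log2 signals, and 2.11 is the lowest that the normalization gave. A level near it means that the probe set was not distinguished from background.

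Spermatocytes switch on a large program of transcripts needed for meiosis and for building sperm. Full activation requires tMAC, a testis version of the Myb-MuvB (dREAM) complex in which Aly is a subunit, and the testis TAFs (tTAFs), among them Sa, which are variants of subunits of the general factor TFIID. Loss of either leaves the testis filled with primary spermatocytes that do not enter the meiotic divisions. Myb-MuvB complexes are known elsewhere in the fly to hold genes silent as well as to activate them. In whole testes a change in the number of cells of a type and a change in the RNA each cell holds cannot be told apart.

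The labelled genes were checked first. The probe set of sa read 5.54 to 6.01 in sa testes, below the 10.63 to 10.96 of wild type, and 13.58 to 13.72 in aly. The aly probe set was not lowered in aly testes, where it read 7.16, 7.44 and 7.76 against 6.32, 6.58 and 6.77 in wild type, so it does not test the label. No probe set is named for Med22. Array medians lay at 3.07 to 3.11 in aly, the lowest of the 4 genotypes, and at 3.66 to 3.80 in wild type. Within a genotype the arrays correlated across probe sets with r of 0.983 to 0.997.

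**Figure D1:**
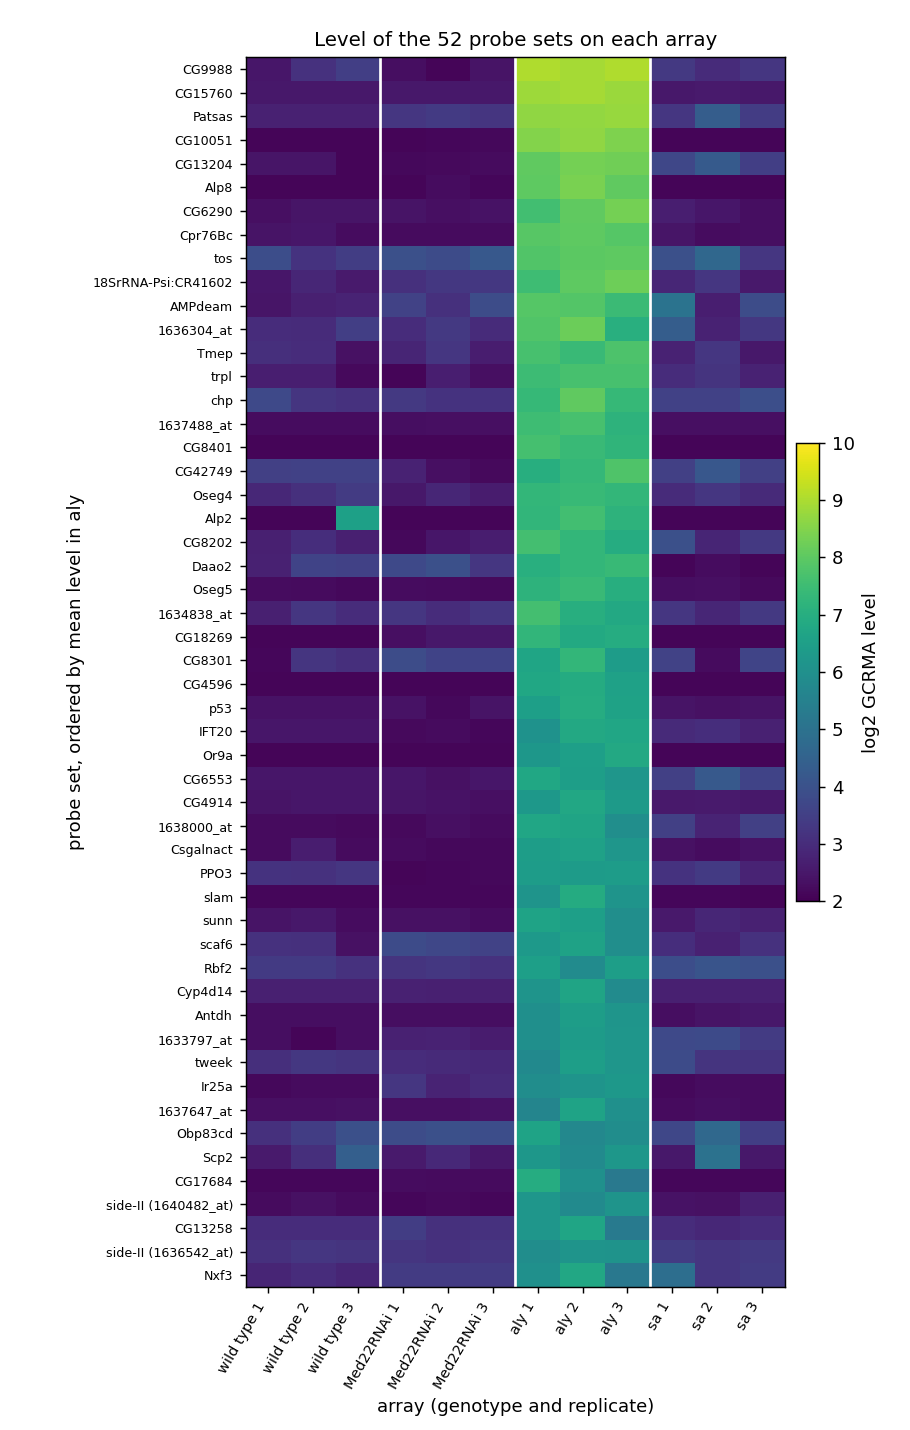
Log2 GCRMA level (colour) of the 52 probe sets (rows, ordered by their mean in aly) on the 12 arrays (columns, 3 per genotype). The 3 aly columns are bright in every row, and the other 9 are dark apart from single arrays such as wild-type replicate 3 for Alp2 at 6.54.

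As a group the 52 probe sets had a median level of 6.78 in aly, 2.51 in wild type, 2.43 in Med22RNAi and 2.91 in sa. Their aly means ran from 6.01 to 9.01, with 25 at 7 or more and 6 at 8 or more. The difference between aly and wild type was 2.59 to 6.43 on the log2 scale with a median of 4.17, while the median difference over all probe sets was 0.00. On all 52 probe sets every aly array lay above all 9 other arrays, by a gap of 0.30 to 6.26 (median 3.21), against 14.9% of all probe sets. This count largely follows from the rule. The aly replicates differed little, with an SD of 0.02 to 0.87 (median 0.24), and 5 probe sets had an SD over 0.5.

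How silent the transcripts were elsewhere varied. For 21 of the 52 all 9 other arrays read below 3, and for 4 of these (CG8401, CG4596, Or9a and slam) all 9 lay within 0.05 of the lowest value on the array. At the other end, 15 had a mean over 3.5 in at least 1 of the other genotypes. Between these other genotypes there was no common order. In Med22RNAi all 3 arrays lay above all 3 wild-type arrays for 13 probe sets (25.0%, against 31.1% of all probe sets) and below them for 9 (against 19.1% of all). In sa they lay above for 14 (26.9%, against 29.6%) and below for 2 (against 15.5% of all).

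The limits of the rule cut through a continuous range. Just inside the lower limit for aly stood Nxf3, CG13258 and 1 probe set of side-II, at means of 6.01, 6.05 and 6.05, and just outside it CG13288 at 5.95, CG14451 at 5.85 and the transcription factor gene ham at 5.69. Just inside the upper limit for the other genotypes stood tos, with a mean in Med22RNAi that rounds to 4.0, Rbf2 at 3.97 in sa and Obp83cd at 3.96 in sa. Just outside were hbt at 4.08 in wild type, CG32599 at 4.14 in Med22RNAi and Ucp4A at 4.15 in sa. The mirrored rule, with the genotypes exchanged, found 71 probe sets on only in Med22RNAi, 23 on only in sa and 90 on only in wild type. A further 76 were below 4 in wild type and at 6 or more in aly, sa and Med22RNAi alike.

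The strongest signals came from genes of unlike function. The probe set of CG9988 read 9.06, 8.93 and 9.04 on the aly arrays, 2.48, 3.14 and 3.49 in wild type, 2.30, 2.11 and 2.42 in Med22RNAi and 3.33, 2.97 and 3.27 in sa, a 62.6-fold difference between aly and wild type. CG15760 read 8.84, 8.92 and 8.79 in aly and 2.5 to 2.58 on the other 9 arrays, which makes it at least 57.6-fold higher in aly, since all wild-type arrays lay under a log2 of 3 and were set to 3 for such bounds. For both genes the aly arrays stood apart from the rest by more than 5 units; both are known here only by a number. Patsas, a palmitoyltransferase gene, read 8.68, 8.71 and 8.75 in aly, 2.74 on each wild-type array, 3.23 to 3.35 in Med22RNAi and 3.28, 4.37 and 3.43 in sa, at least 52.5-fold above wild type. CG10051 read 8.51, 8.67 and 8.44 in aly and 2.11 to 2.17 elsewhere. Its lowest aly array lay 6.26 above the highest of the others, which were at background, and the bound for CG10051 was at least 46.5-fold above wild type.

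Another pair of genes with only a CG number belong to the 10 brightest. CG13204 read 8.04, 8.32 and 8.28 in aly, 2.11 to 2.46 in wild type, 2.16 to 2.23 in Med22RNAi and 3.70, 4.28 and 3.49 in sa. In sa all 3 arrays of CG13204 were thus above the other silent genotypes, though far below aly. CG6290 read 7.57, 8.06 and 8.33 in aly and 2.30 to 2.67 on the other 9 arrays. The remaining CG genes with a single probe set among the 52 had aly means of 6.05 to 7.43. One of the 10 brightest, 18SrRNA-Psi:CR41602, is annotated as a pseudogene of the 18S ribosomal RNA and read 7.52, 8.03 and 8.22 in aly against 2.47 to 3.29 elsewhere. Its probes can match near-identical ribosomal copies, so which copy gave the signal is uncertain.

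Enzymes were one class with known roles. Alkaline phosphatases remove phosphate groups from substrates outside the cell, and 2 of the 12 family members measured were among the 52. Alp8 read 8.02, 8.39 and 8.04 in aly and 2.11 to 2.26 on the other 9 arrays, at least 35.5-fold above wild type. Alp2 read 7.27, 7.58 and 7.16 in aly, but 2.12, 2.12 and 6.54 in wild type and 2.11 to 2.12 in Med22RNAi and sa. One wild-type array therefore carried Alp2 nearly at the aly level, and its difference between aly and wild type was 3.75 over all arrays and 5.22 without wild-type replicate 3. Alp2 and Alp8 are direct neighbours in the genome and were the only pair of the 45 genes next to each other. A change was called where limma gave an adjusted p under 0.05 and a difference of at least 4-fold, and 14.3% of all probe sets were called higher in aly than in wild type (2693 of 18769) and 10.3% lower (1935). Of the 10 other alkaline phosphatases 0 were called higher in aly and 1 was higher at an unadjusted p under 0.05. This was Alp12, at a mean of 6.57 in aly and 5.22 in wild type, a difference of 1.35 (adjusted p = 0.00112, limma), and Alp11 fell by 2.54 (adjusted p = 4.25e-06). The share of all probe sets at an unadjusted p under 0.05 is not given here. Such counts, here and below, therefore cannot show an excess.

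The gene for AMP deaminase, AMPdeam, which converts AMP to IMP, read 7.88, 7.87 and 7.44 on its aly-specific probe set, 2.44 to 2.79 in wild type, 3.57, 3.11 and 3.85 in Med22RNAi and 5.04, 2.67 and 3.86 in sa. Its aly arrays still cleared the highest sa array by 2.40. Daao2, a D-amino acid oxidase gene, read 7.06, 7.30 and 7.40 in aly, 2.73, 3.61 and 3.55 in wild type, 3.77, 3.95 and 3.26 in Med22RNAi and 2.11 to 2.27 in sa. The exonuclease gene tos (tosca), related to Exo1 and known from the germ line, read 7.82, 7.97 and 8.0 in aly and 3.18 to 4.67 on the other arrays. The other genotypes were thus not wholly silent for tos, though every array stayed well below aly. Among the remaining enzymes, Csgalnact, which builds chondroitin chains, had a mean of 6.41 in aly and 2.16 to 2.63 on the other arrays. The cytochrome P450 gene Cyp4d14 had a mean of 6.23 and Antdh, the antennal dehydrogenase gene, of 6.21, each with wild-type arrays that agreed to 2 decimals at 2.71 and 2.31.

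Several of the transcripts are known from sense organs. In photoreceptors, light opens the TRP and TRPL cation channels, and Chaoptin, made by chp, is a surface protein that holds the microvilli together. The channel gene trpl read 7.49, 7.66 and 7.67 in aly, 2.66, 2.66 and 2.20 in wild type, 2.11, 2.66 and 2.32 in Med22RNAi and 3.02, 3.21 and 2.78 in sa, at least 24.3-fold above wild type. The probe set of trpl is of a type that can match transcripts of more than 1 gene. The values for chp were 7.35, 8.05 and 7.35 in aly, 3.77, 3.24 and 3.14 in wild type, 3.16 to 3.34 in Med22RNAi and 3.54 to 3.92 in sa. Both genes were clear of all other arrays, by 4.28 and 3.42.

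Of 14 photoreceptor genes measured, 12 were not among the 52, and of these 0 were called higher in aly by limma, 2 were higher at an unadjusted p under 0.05, and 1, Arr1, was called lower. In aly the photoreceptor channel gene trp, the scaffold gene inaD, the kinase gene inaC and the arrestin gene Arr2 had means of 2.11 to 2.13, at or near the lowest value. Gbeta76C, the photoreceptor G protein subunit gene, was at 4.48 in aly and 2.96 in wild type, a difference of 1.53 (adjusted p = 1.16e-06) that missed the 4-fold limit. With all arrays centred on a common median, which raises each difference between aly and wild type by 0.64, Gbeta76C was called at 2.17, and after a further quantile normalization at 2.38. Centring turned the counts over all probe sets into 4030 higher and 1696 lower.

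Chemosensory genes gave 3 of the 52. Or9a, an odorant receptor gene, read 6.22, 6.52 and 6.84 in aly and 2.11 on each of the other 9 arrays, at least 11.5-fold above wild type. Ir25a, which encodes a co-receptor of ionotropic receptors, read 5.91, 6.15 and 6.28 in aly, 2.18 to 2.24 in wild type, 2.80 to 3.27 in Med22RNAi and 2.16 to 2.25 in sa. Obp83cd, an odorant-binding protein gene, read 6.65, 5.74 and 5.91 in aly, 3.12 to 3.96 in wild type, 3.86 to 3.96 in Med22RNAi and 3.71, 4.70 and 3.48 in sa, so that its lowest aly array was only 1.04 above the highest sa array. Orco, the co-receptor of odorant receptors, had a mean of 2.11 in aly and 2.12 in wild type. Ir8a, another co-receptor of ionotropic receptors, had 3.12 and 2.23, a difference of 0.89 (adjusted p = 0.00116) that was not called. Of the 30 chemosensory genes in the list other than Ir25a, 0 were called higher by limma, 6 were higher at an unadjusted p under 0.05, and 2 were called lower.

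Counted over whole families without the 52, 1 of 55 odorant receptor genes, 1 of 52 ionotropic receptor genes and 2 of 56 gustatory receptor genes were called higher in aly, against 14.3% of all probe sets. These were Or94a, Ir76a, Gr61a and Gr47b, and Or94a fell to 1.10 and was not called with a floor at 4, that is, with all values below a log2 of 4 set to 4. Of 46 odorant-binding protein genes 0 were called higher by limma and 8 were higher at an unadjusted p under 0.05, and Obp19a and Obp56c were called with arrays centred (2.32 and 2.13) and after quantile normalization (2.43 and 2.1). Gr61a read 6.98, 7.42 and 7.41 in aly, 2.69 to 2.93 in wild type, 4.76 to 4.84 in Med22RNAi and 2.94 to 3.71 in sa, a rise of 4.42 ± 0.20 (SE) in aly (adjusted p = 1.06e-07, limma). Gr61a thus met all the limits of the rule except that for Med22RNAi. For Ir76a all wild-type arrays were already at 5.64 to 6.19, and it rose by 3.52 ± 0.16 (adjusted p = 1.05e-07). These family lists were assembled after the 52 transcripts were known.

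Sensory neurons of the fly carry cilia, which are built by intraflagellar transport (IFT), the movement of protein trains along the ciliary microtubules. The complexes IFT-A and IFT-B make up the trains, and fly sperm, whose tails form within the cytoplasm, are known to be made without IFT. Of the IFT genes, 3 were among the 52: Oseg4 of IFT-A, and Oseg5 and IFT20 of IFT-B. Oseg4 read 7.31, 7.39 and 7.31 in aly, 2.90, 3.11 and 3.38 in wild type, 2.5 to 2.87 in Med22RNAi and 2.96 to 3.25 in sa, and was 18.5-fold above wild type. Oseg5 read 7.18, 7.42 and 7.02 in aly and 2.18 to 2.32 elsewhere, and IFT20 read 6.09, 6.83 and 6.74 in aly, 2.49 on each wild-type array, 2.13 to 2.24 in Med22RNAi and 2.74 to 3.05 in sa. All 3 genes were clear of every other array by at least 3 units.

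**Figure D2:**
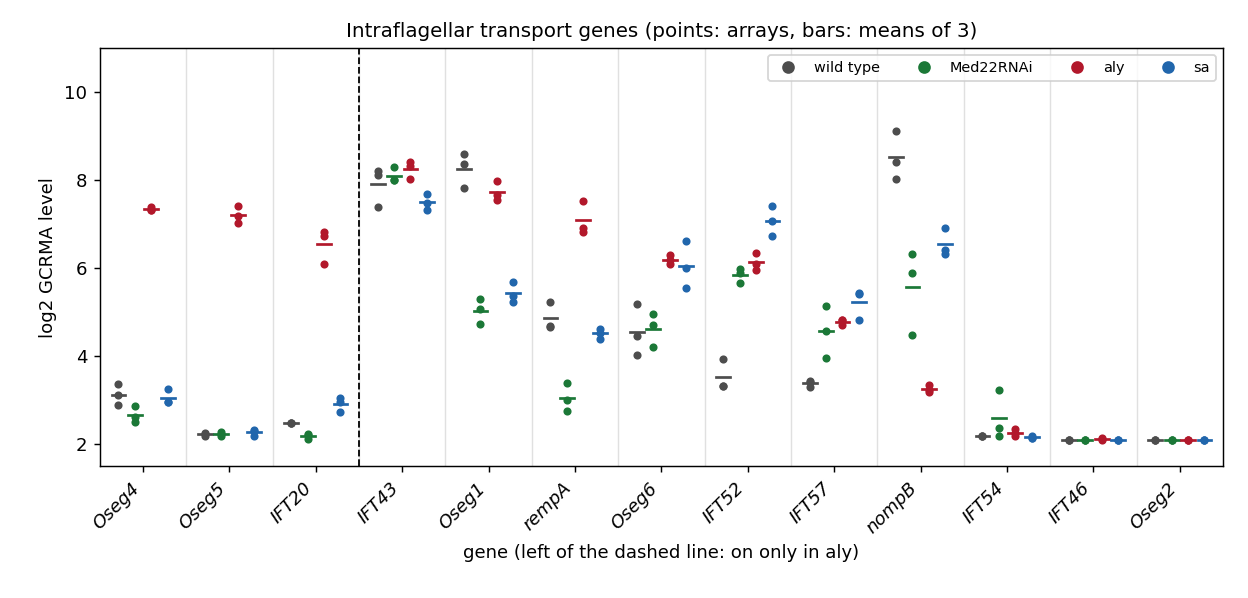
Log2 GCRMA level of 13 intraflagellar transport genes on each array (points, coloured by genotype) with the mean of 3 (bars). Oseg4, Oseg5 and IFT20, left of the dashed line, are high only in aly, while the other 10 genes follow different patterns, such as the fall of nompB in aly to a mean of 3.26.

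The other 10 IFT genes did not share 1 pattern. In aly 2 were called higher (rempA and IFT52) and 1 lower (nompB), 5 were higher at an unadjusted p under 0.05, and the median difference of the 10 was 0.21. With centred arrays and after quantile normalization 4 were called higher, with Oseg6 at 2.28 and 2.04 and IFT57 at 2.04 and 2.17. The IFT-A gene rempA read 6.83, 7.52 and 6.91 in aly, 4.67 to 5.24 in wild type, 2.76 to 3.39 in Med22RNAi and 4.40 to 4.63 in sa. It rose by 2.23 ± 0.24 (SE) against wild type (adjusted p = 3.78e-05) and was also above Med22RNAi and sa, by 4.04 and 2.57. IFT52 rose in all arrested testes, by 2.61 in aly, 2.32 in Med22RNAi and 3.55 in sa. The IFT-B gene nompB went the other way, from 9.11, 8.02 and 8.41 in wild type to 3.19, 3.24 and 3.35 in aly, and fell by 5.25 ± 0.46 (adjusted p = 9.52e-06). Oseg2 and IFT46 stayed at 2.11 to 2.14 on every array, so part of the pathway gave no signal in any genotype. Of the motor genes, Kap3 and Klp68D, subunits of the kinesin-2 that carries IFT trains, rose in all 3 arrested genotypes, by 5.37 and 3.70 in aly. The dynein gene btv stayed at 2.11 on all 12 arrays. Of 6 genes for the BBSome and its partner Arl6, 1 was called higher: BBS9 read 3.87, 5.58 and 4.38 in aly and 2.11 to 2.13 elsewhere, a rise of 2.5 ± 0.35 (adjusted p = 0.000234) that was 0.65 and not called with the floor at 4. These lists too were assembled after the 52 transcripts were known.

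Transcripts with roles in germ cells, meiosis and the control of transcription were a further group. The gene sunn, needed for cohesion of sister chromatids in fly meiosis, read 6.65, 6.52 and 5.95 in aly and 2.26 to 2.87 on the other 9 arrays. Nxf3, which exports piRNA precursors in the ovary, read 6.03, 6.80 and 5.19 in aly, 2.84 to 3.0 in wild type, 3.38 to 3.40 in Med22RNAi and 4.89, 3.23 and 3.40 in sa. Nxf3 is the member with the smallest gap, 0.30, because aly replicate 3 was low and sa replicate 1 high. The gene slam, which drives membrane growth when the embryo forms cells, read 6.14, 6.92 and 6.14 in aly and 2.12 to 2.14 elsewhere. The 3 other cohesion genes measured, SMC3, ord and SMC1, were all called higher in aly (against 14.3% of all probe sets), by 4.42, 3.02 and 2.40, and each also rose in Med22RNAi, by 2.95, 3.34 and 2.48.

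A pair of regulators of transcription belonged to the 52. The tumour suppressor gene p53 read 6.53, 6.95 and 6.61 in aly and 2.16 to 2.41 on the other arrays with its aly-specific probe set, at least 13-fold above wild type. Of 4 genes that p53 is known to activate, 1, the TNF gene egr, was called higher in aly, by 2.15 ± 0.30 (adjusted p = 0.00023), a call that was lost without wild-type replicate 1 (1.97), without aly replicate 2 (1.98) and with the floor at 4 (1.66). Rbf2, the second retinoblastoma family gene of the fly, whose product joins E2f2 in dREAM, read 6.53, 5.85 and 6.48 in aly, 3.14 to 3.37 in wild type, 3.14 to 3.30 in Med22RNAi and 3.88 to 4.09 in sa. Its aly arrays lay 1.76 above the highest sa array.

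Other genes of that complex were raised in aly too. Of 9 other genes of the generic Myb-MuvB complex and its partners, 6 were called higher in aly (66.7%, against 14.3% of all probe sets) and 0 lower by limma. All 9 were higher at an unadjusted p under 0.05, for which the share of all probe sets is not given. The largest rises were in mip120, by 4.0 (adjusted p = 3.13e-07), Caf1-55, by 2.76, and lin-52, by 2.66. Of the same 9 genes, 2 were called higher in Med22RNAi and 2 in sa, against 11.3% and 9.52% of all probe sets, and all these comparisons share the wild-type arrays. With centred arrays 8 of the 9 were called in aly, with Rbf at 2.29 and l(3)mbt at 2.40, and after quantile normalization 4, without mip130 at 1.97 and Dp at 1.94. Testis-specific tMAC and tTAF genes were high in aly as well, with 8 of 9 and 4 of 4 genes called higher (against 14.3% of all probe sets). In each of Med22RNAi and sa, 3 of 9 tMAC and 1 of 4 tTAF genes were called higher, and in sa 1 tTAF gene was called lower. After quantile normalization 7 and 3 were called higher in aly, without achi at 1.92 and can at 1.74. The call of mip130 at 2.07 was also lost without wild-type replicate 3 (1.87), and that of can in 4 of the fits that left out 1 array (1.90 to 1.99).

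The class of secreted and structural proteins had few members. Cpr76Bc, a gene for a protein of the chitin-containing cuticle, read 7.92, 8.02 and 7.90 in aly and 2.22 to 2.49 elsewhere, at least 30.8-fold above wild type. Of 65 other cuticular protein genes, 2 were called higher in aly and 5 lower, and of the 44 genes in a broader cuticle list 3 were higher and 2 lower. The 3 were TwdlT, Pcp and y, the gene mutated in the control strain, which was also higher in Med22RNAi and sa and whose difference was 1.20 and not called with the floor at 4. PPO3, the prophenoloxidase gene of lamellocytes, a blood cell that coats large foreign bodies, read 6.43, 6.39 and 6.41 in aly, 3.13 to 3.25 in wild type, 2.11 to 2.17 in Med22RNAi and 2.80 to 3.37 in sa. PPO3 had the smallest spread in aly of all 52, an SD of 0.02, and of the 2 other prophenoloxidase genes 0 were higher by limma, also at an unadjusted p under 0.05. Of 14 hemocyte genes besides PPO3, Hml, a plasmatocyte gene, rose by 3.05 (adjusted p = 3.95e-06) and srp fell, and 6 were higher at an unadjusted p under 0.05. With centred arrays 4 of the 14 were called higher, with Pxn at 2.43, crq at 2.19 and Ppn at 2.84, and after quantile normalization also 4, with Pxn at 2.08, Ppn at 2.51 and NimC1 at 2.04. The genes eater, He and lz were at 2.11 in aly. The median level of the hemocyte list, PPO3 included, was 5.48 to 6.43 on the aly arrays and 3.38 to 4.52 in wild type. Its median difference from wild type was alike in the arrested genotypes, 0.68 in aly, 0.72 in Med22RNAi and 0.75 in sa. Of the 14 genes besides PPO3, 4 were called higher in Med22RNAi and 2 in sa, against 11.3% and 9.52% of all probe sets. The part of hemocytes in the PPO3 signal was not tested.

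The remaining named genes were mostly known from nerve and muscle. Scp2, a calcium-binding protein gene of the sarcoplasmic type, read 6.22, 5.82 and 6.22 in aly, 2.58, 3.07 and 4.41 in wild type, 2.51 to 2.93 in Med22RNAi and 2.51, 5.03 and 2.51 in sa. One sa array of Scp2 thus came within 0.79 of the lowest aly array. Of 19 muscle genes 1 was called higher in aly (Strn-Mlck, by 2.07, lost in the fit of aly and wild type alone, after quantile normalization, without wild-type replicate 2 at 1.46 and without replicate 3 at 1.99) and 2 lower. The gene side-II, of the Sidestep family of immunoglobulin proteins that guide axons, was the only gene with 2 probe sets among the 52. They read 6.21, 5.84 and 6.13 and 5.92, 6.13 and 6.11 in aly, against 2.14 to 2.69 and 3.12 to 3.39 elsewhere. Of the 7 other Sidestep family genes 0 were called higher by limma and 1, side-V, was higher at an unadjusted p under 0.05 (2.55 and called with centred arrays, 2.20 and called after quantile normalization). CG17684, with no named role, had the largest spread in aly, at 6.95, 6.03 and 5.22 against 2.14 to 2.26 elsewhere, followed by Nxf3 and by CG13258, which read 6.19, 6.69 and 5.26 against 2.88 to 3.46.

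A gene can have several probe sets, which may lie in different exons or at different transcript ends. Those that did not meet the rule gave a further measure of the same genes. Of the 45 genes, 10 had 20 other probe sets. In 6 of the 10 genes another probe set was at 6 or more in a genotype other than aly, and in 4 of them in wild type. For these 6 genes the pattern is therefore not that of the gene as a whole. Of the 20, 6 were called higher in aly than in wild type (30.0%, against 14.3% of all probe sets), 1 was lower, and 2 were higher than in each of wild type, Med22RNAi and sa (against 1.54% of all probe sets). A further 8 stayed below 4 in every genotype, and the median difference over the 20 was 0.11.

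**Figure D3:**
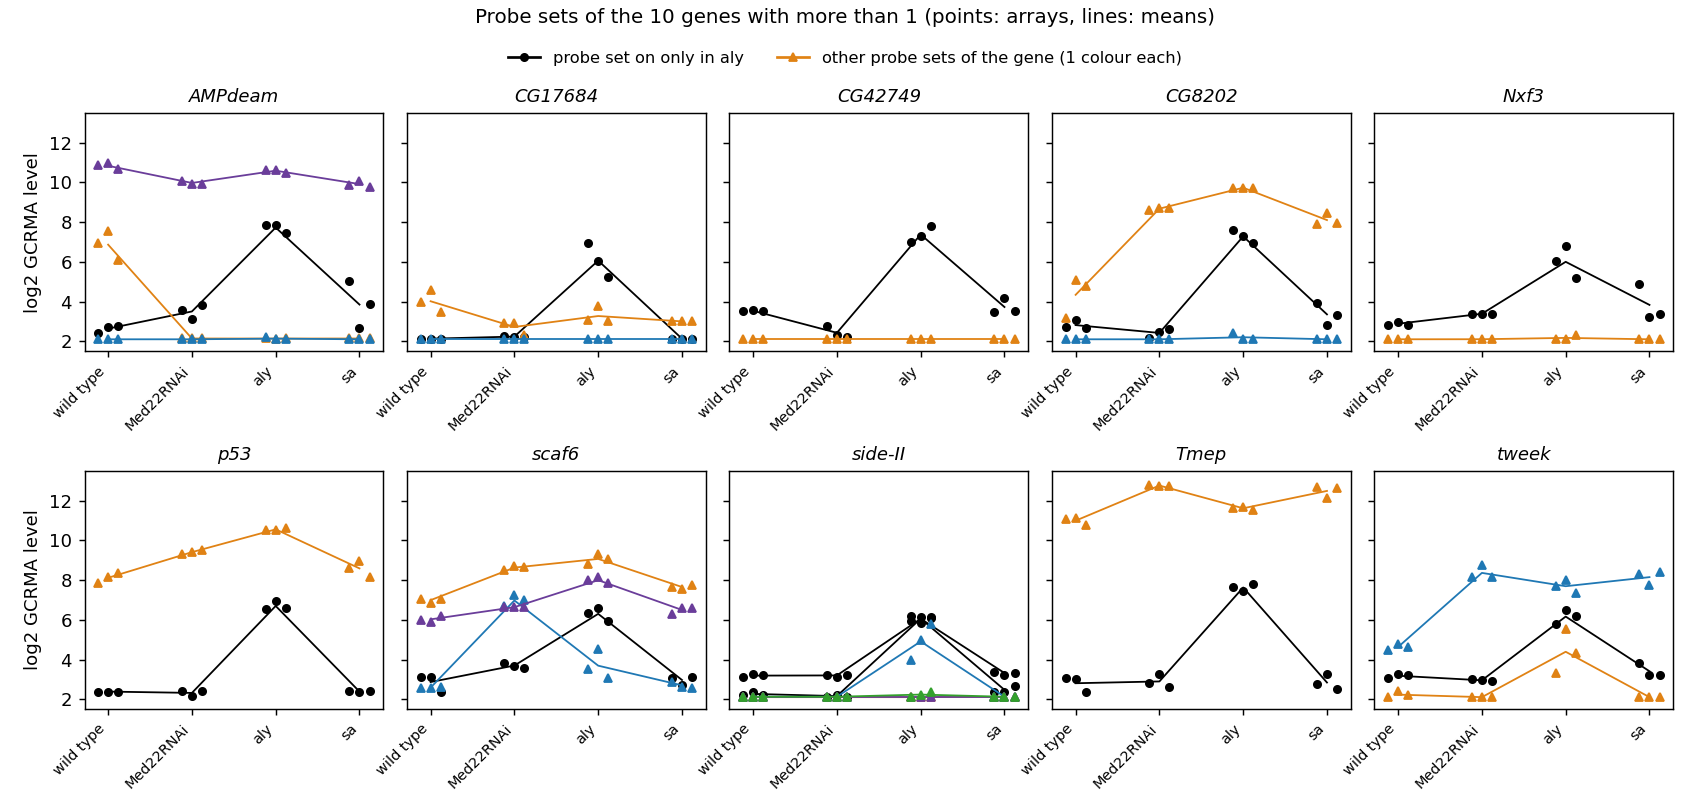
Log2 GCRMA level by genotype for the 10 genes with more than 1 probe set. Black circles are the probe sets on only in aly, coloured triangles the other probe sets of the gene (1 colour each), points are arrays and lines join the means of 3. For AMPdeam, p53, scaf6 and Tmep another probe set is at 6 or more in wild type, and for side-II and tweek a second probe set rises in aly alone.

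The second probe set of p53 showed that the gene was expressed in every genotype. It read 7.83, 8.14 and 8.37 in wild type, 9.30, 9.39 and 9.52 in Med22RNAi, 10.51, 10.54 and 10.60 in aly and 8.62, 8.97 and 8.17 in sa. Its rise in aly of 2.44 ± 0.20 (SE) was called (adjusted p = 5.57e-06, limma). The aly arrays of this probe set lay above all others too, but from a level that was already high. AMPdeam split 3 ways. One probe set was near 10 everywhere (10.68 to 10.97 in wild type and 10.49 to 10.64 in aly), another was on only in wild type, at 6.94, 7.58 and 6.09 against 2.14 to 2.15 on the 9 arrays of the arrested testes (a fall of 4.72 ± 0.30 in aly, adjusted p = 1.03e-06), and the one described above was on only in aly. The AMPdeam probe sets are all of the type that can match transcripts of more than 1 gene, and the sequences they match were not checked.

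For CG8202 and tweek another probe set rose in all the arrested testes. That of CG8202 read 9.72 to 9.74 in aly, against 3.16, 5.07 and 4.81 in wild type, 8.61 to 8.73 in Med22RNAi and 7.90 to 8.46 in sa, a rise of 5.39 ± 0.43 in aly (adjusted p = 4.89e-06). That of tweek, a gene needed for recycling of synaptic vesicles, read 4.5 to 4.79 in wild type and 7.36 to 8.75 on all the other arrays, with a rise of 3.06 ± 0.24 in aly. The aly-specific probe set of tweek read 5.80, 6.48 and 6.21 in aly and 2.91 to 3.84 elsewhere. Another tweek probe set was again raised in aly alone, at 3.33, 5.53 and 4.32 against 2.11 to 2.40. Its rise of 2.16 ± 0.44 (adjusted p = 0.00282) fell to 1.59 without aly replicate 2 and to 0.62 with the floor at 4, and was then not called.

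The other probe sets of these genes did not share 1 pattern. A further probe set of side-II read 3.98, 4.98 and 5.78 in aly and 2.13 to 2.14 elsewhere, a rise of 2.78 ± 0.36 (adjusted p = 0.000135) that was 0.92 and not called with the floor at 4. Its 3 remaining probe sets stayed at 2.11 to 2.37. The gene scaf6, which encodes an SR-related protein that binds RNA polymerase II, read 6.34, 6.61 and 5.95 in aly and 2.37 to 3.83 elsewhere on its aly-specific probe set. Of its other 3, 1 rose by 2.07 ± 0.12 from a wild-type level of 6.87 to 7.06 (1.95 without aly replicate 2 and 1.79 after quantile normalization, neither called), 1 rose by 1.97 ± 0.11 and missed the limit (2.05 and called without wild-type replicate 3 or aly replicate 3, and 2.61 and called with centred arrays). The last was called higher only in Med22RNAi, at 6.71, 7.23 and 6.98 against 2.57 to 2.63 in wild type, and read 3.51, 4.52 and 3.05 in aly, a difference of 1.10 ± 0.32 (adjusted p = 0.0207) under the 4-fold limit. For Tmep, whose aly-specific probe set read 7.67, 7.43 and 7.78 in aly and 2.35 to 3.25 elsewhere, the second probe set was at 10.79 to 11.12 in wild type and 11.53 to 11.66 in aly and was not called. For CG42749, CG17684 and Nxf3 no other probe set exceeded 4.58 on any array. The aly-specific CG42749 probe set read 7.02, 7.33 and 7.79 in aly, 3.52 to 3.56 in wild type and 2.21 to 4.18 in Med22RNAi and sa.

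Neighbouring genes were compared to see whether the transcripts came from single genes or from wider stretches of chromosome. For each of the 45 genes the nearest annotated gene on either side that had a probe set was taken, which gave 87 genes. In aly 23 of them were called higher (26.4%, against 14.3% of all probe sets) and 11 lower (12.6%, against 10.3%), and 52 had a mean of 6 or more in wild type. Each neighbour was represented by the probe set of its gene with the highest mean, whereas the shares of all probe sets include dim ones. The shares therefore cannot show an excess among neighbours. In sa 16 of the 87 were called higher, against 9.52% of all probe sets, so a larger share was not particular to aly. In Med22RNAi 10 of the 87 were called higher, near the 11.3% of all probe sets. Of the 23, 16 were also called higher in sa and 8 in Med22RNAi. Directly against sa, 4 of the 87 were called higher in aly. With centred arrays 31 of the 87 were called higher in aly than in wild type. By position, 8 of the 20 neighbours that overlap one of the 45 genes in the annotation were higher (40%), as were 15 of the 67 that do not (22.4%). The difference between these shares was not tested, and the gene table used here gives no strand. In all, 24 of the 45 genes overlap another annotated gene.

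**Figure D4:**
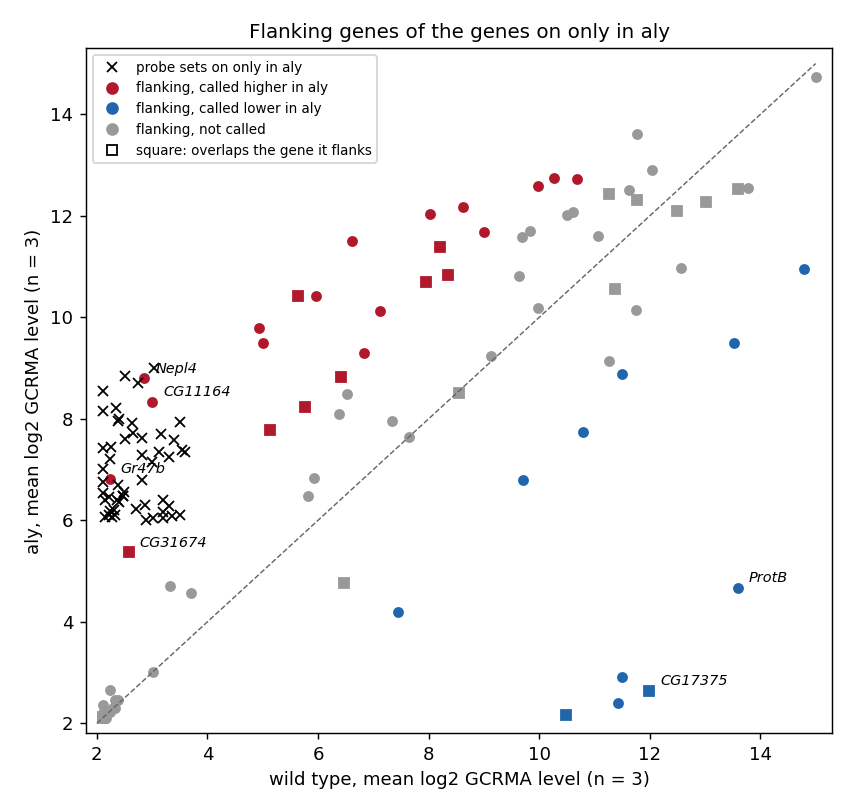
Mean log2 GCRMA level in wild type (x axis) and in aly (y axis), each of 3 arrays, for the 87 neighbouring genes (circles, or squares where they overlap the gene they flank, coloured by call) and for the 52 probe sets on only in aly (crosses). The dashed line marks equal levels. Most of the 23 neighbours that rose lie to the right of the crosses, with only 4 below a wild-type mean of 4, and the neighbours that fell include ProtB and CG17375.

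Only 4 of the neighbours that rose were silent in wild type, with a mean below 4: Nepl4, Gr47b, CG11164 and CG31674. Nepl4, a neprilysin-like peptidase gene beside slam, read 8.63, 8.77 and 9.0 in aly, 2.84 to 2.88 in wild type, 2.99 to 3.73 in Med22RNAi and 6.89, 7.39 and 6.75 in sa, and rose by 5.94 ± 0.22 in aly (adjusted p = 3.55e-08, limma). Gr47b, a gustatory receptor gene beside CG13204, read 6.97, 6.71 and 6.78 in aly, 2.21 to 2.27 in wild type, 2.26 to 2.36 in Med22RNAi and 5.97, 6.47 and 6.36 in sa, and rose by 4.59 ± 0.12 (adjusted p = 5.15e-09). Both neighbours were thus on in sa as well as in aly, unlike slam and CG13204 themselves. CG11164, beside CG15760, rose in all 3 arrested genotypes, by 5.33 in aly. CG31674, which overlaps Oseg5, read 5.19, 5.70 and 5.22 in aly, 2.42 to 2.81 in wild type and 3.11 to 3.89 in Med22RNAi and sa, and its rise of 2.79 (adjusted p = 2.79e-06) was 1.37 and not called with the floor at 4.

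The other 19 rose from a higher level, and several have known roles in gene expression and cell division. They include mor, a subunit gene of Brahma chromatin-remodelling complexes that overlaps Rbf2 (3.18 in aly, 2.89 in Med22RNAi and 2.36 in sa). The zinc finger gene M1BP beside CG8202 rose by 3.54 in aly, 3.68 in Med22RNAi and 2.28 in sa. Zwilch, a kinetochore gene beside chp, rose by 2.68 in aly and 2.98 in sa and was not called in Med22RNAi (1.24). For tum, a gene for cytokinesis beside CG6553, the rise was 4.01 in aly and 3.05 in sa, and it was not called in Med22RNAi (0.89). The transcription factor gene mamo, beside AMPdeam, read 9.68, 9.81 and 9.84 in aly, 4.83 to 5.06 in wild type, 2.90 to 3.32 in Med22RNAi and 7.34 to 7.83 in sa, and rose by 4.84 ± 0.15 in aly (adjusted p = 1.25e-08). Ced-12, which overlaps Patsas, rose by 4.79 in aly, 4.49 in Med22RNAi and 2.28 in sa. Fdh, beside CG4596, was the least certain of the 23, since its rise of 2.05 was not called without wild-type replicate 1 or 2 or aly replicate 2 or 3 (1.93 to 1.98) or after quantile normalization (1.94). Other neighbours became called when 1 array was left out: Fnta at 2.03 and CG14903 at 2.09 without wild-type replicate 3, and Sodh2 without wild-type replicate 2 or 3 or aly replicate 2 (2.01 to 2.26).

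Neighbours could also move strongly the opposite way. ProtB, which encodes a protamine of sperm chromatin and lies beside side-II, read 13.26, 13.74 and 13.77 in wild type and 5.12, 4.55 and 4.33 in aly, a fall of 8.93 ± 0.35 (adjusted p = 4.76e-08). CG17375, which overlaps Daao2, fell by 9.35 ± 0.26, from 11.83 to 12.10 in wild type to 2.51 to 2.77 in aly. CG12914, which overlaps Csgalnact, fell by 8.30, CG12035 beside Oseg4 by 9.02, and CG32087 beside sunn by 8.58. All 5 were also called lower in Med22RNAi and sa, by 2.42 and 5.59 for ProtB and 4.13 and 5.51 for CG17375, so their fall was not confined to aly.

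The tissue lists placed the 52 transcripts among markers of other tissues. Of the 52, 5 lie in 19 lists written for tissues and complexes (trpl, chp, Ir25a, PPO3 and Rbf2). Of the 382 other distinct genes measured from these lists, 36 were called higher in aly (9.42%, against 14.3% of all probe sets) and 20 lower, and 55 were called higher with centred arrays and 41 after quantile normalization. The 36 include genes of the tMAC (8 of 9), tTAF (4 of 4), spermatogonia (4 of 8) and generic Myb-MuvB (6 of 9) lists. The share among markers of other tissues alone was therefore lower. Of 30 neuronal genes 1 was higher, CCHa1, which rose in all arrested genotypes, and the neuronal list had a median level of 2.12 on every aly and wild-type array, while elav was at 3.51 in aly and 2.44 in wild type and was not called. In the homeotic, segmentation and proneural list 0 of 39 were called higher by limma, 2 were higher at an unadjusted p under 0.05, 1 (cad, 2.44) was called higher with centred arrays, and 3 were called lower. Of 27 gut genes 1 was higher, of 50 detoxification genes 2, of 13 fat body genes 1, of 9 heat shock genes 1 and of 6 antimicrobial genes 0, with 0 also at an unadjusted p under 0.05 and 1 (Mtk, 2.01) called after quantile normalization. From 36 ovary and eggshell genes, 5 were higher, led by grk, the oocyte signal gene, which read a mean of 5.68 in aly, 2.65 in wild type, 3.18 in Med22RNAi and 2.76 in sa and rose by 3.03 (adjusted p = 1.44e-08, but 1.68 and not called with the floor at 4), and by alphaTub67C at 2.70. The yolk protein genes Yp1 and Yp2 were at 2.11 and 2.26 in aly.

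**Figure D5:**
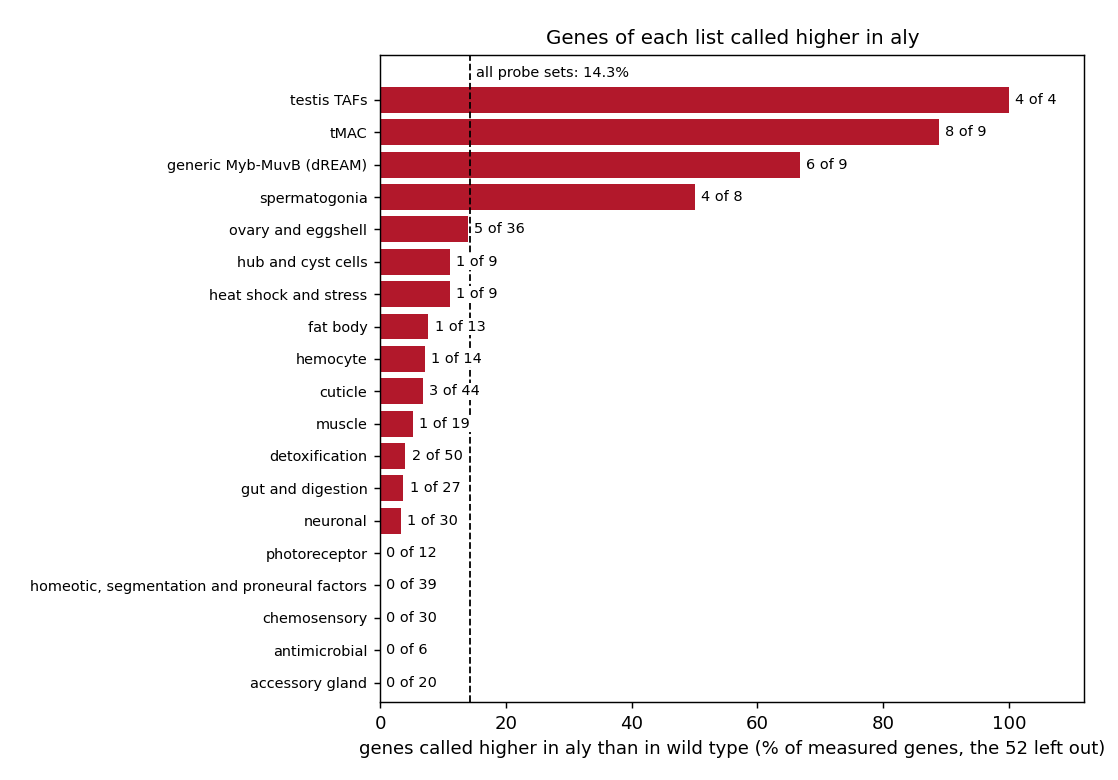
Share of the measured genes of each of 19 lists, the 52 left out, called higher in aly than in wild type (bars, % of genes, with the counts beside them). The dashed line marks the 14.3% of all probe sets called higher, and only 4 lists (tTAFs, tMAC, generic Myb-MuvB and spermatogonia) stand clearly to the right of it.

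Some lists bear on which cells the dissected testes held. Genes of spermatogonia had median levels of 9.50 to 9.55 on the aly arrays and 6.04 to 6.56 in wild type. Of 8 measured, 4 were called higher in aly, 3 in Med22RNAi and 4 in sa, against 14.3%, 11.3% and 9.52% of all probe sets. In aly these were bam (by 5.04), zpg (3.78), piwi (2.71) and aub (2.35), and aub was 1.98 and not called after quantile normalization. Accessory gland genes were present on all arrays although the glands had been removed, with median levels of 7.26 to 8.71 in aly and 9.04 to 13.18 in wild type, and 0 of 20 were higher in aly by limma, also at an unadjusted p under 0.05, and 4 were called lower. Of 9 hub and cyst cell genes 1, piwi, was higher. The part of these cells in the 52 signals was not tested.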

How the data were processed

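The authors used GCRMA, which corrects Affymetrix probes for background, normalizes the arrays and gives 1 log2 signal per probe set, and deposited those signals. The version, and whether GCRMA was run once over all 12 arrays, are not given in the sources used here. Testes were dissected without seminal vesicles and accessory glands, and about 250 ng of total RNA was labelled per array. Of 18952 rows, 183 control probe sets were removed and no filter on low signal was applied. Gene symbols came from the array annotation, which gives 1 symbol to 13647 of the 18769 probe sets, several to 402 and none to 4720; 13544 of the first were found in the NCBI gene table of Drosophila release 6 (Release 6 plus ISO1 MT), which gave current names and neighbours. The build behind the array files is not given in the sources used here, so no coordinates are printed.

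A linear model with 1 mean for each genotype was fitted over the 12 arrays in R 4.3.3 with limma 3.58.1 (lmFit, then eBayes with no trend), with Benjamini-Hochberg adjustment over all 18769 probe sets. Calls required at least a 4-fold change at an adjusted p below 0.05, the limits of the study. The fit was tested on simulated data. In lists and among neighbours a gene was represented by the probe set with the highest mean over all arrays. Levels of different probe sets are not comparable, since probes bind with different strength. Fold bounds were computed with a group at a log2 of 3 where all its arrays lay below 3.

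The 52 transcripts and all lists were chosen with earlier results of these data known; 19 lists of tissue and complex genes were written before the values were used here, and 5 lists and 10 families were added after the 52 were seen. Named genes are the 10 brightest in aly, up to 4 of each class of function, those with a second probe set, with the largest spread or nearest the limits, neighbours called higher and up to 4 called genes of a list; Csgalnact, Cyp4d14, Antdh, slam, sunn and genes named as not called were chosen after their values were seen. Alternatives changed 1 choice at a time: a fit of 2 genotypes, a replicate block, centred or quantile-normalized arrays, a filter or floor at a log2 of 4, a variance trend with robust eBayes, a 2-fold limit, other limits of the rule, and each array left out. Tables were made with pandas 2.3.3 in Python 3.11.15 and figures with matplotlib 3.10.9.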

Additional observations from a re-analysis of the deposited data

How the results depend on the processing

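The number of probe sets that met the rule depended on the scale and the limits. It was 88 with all arrays centred on a common median and 89 after a further quantile normalization, each including the 52. Centring raises the aly arrays, which have the lowest medians, and lowers the Med22RNAi and sa arrays. Quantile normalization made some differences between aly and wild type larger, as for Gbeta76C, and others smaller, as for Fdh (2.05 to 1.94). The number was 98 with a limit of 5 in place of 6 for aly and 25 with a limit of 7. When every single array had to pass it was 27, and these last 2 sets are subsets of the 52. With 3.5 or 4.5 in place of 4 for the other genotypes it was 37 and 75. Leaving out 1 array gave 47 to 54. For single probe sets of the 52, the difference between aly and wild type was compared with the pooled spread between replicates. It moved by more than that spread in 50 of 52 when arrays were centred and in 32 after quantile normalization. Leaving out 1 of 3 arrays cannot move it that far by construction, so that check decides nothing. No difference changed direction. The count of all probe sets called higher in aly, 2693, was 4683 with a 2-fold limit, 4030 with arrays centred and 2571 to 2821 with 1 array left out. The count called lower, 1935, was 2436 with a 2-fold limit and 1696 with arrays centred. It was 1875 after quantile normalization, 1801 with a floor of 4, 1893 in the fit of 2 genotypes and 1991 with dim probe sets left out. The tissue lists with 5 of the 52 included held 41 called genes, which became 67 with the 2-fold limit, 60 with arrays centred, 46 after quantile normalization, 36 with a floor of 4 and 39 to 46 with 1 array left out. The 6 other probe sets became 7, 5 and 4 and the 23 neighbours 31, 23 and 22 in these 3 rescalings, and 4 to 7 and 22 to 26 with 1 array left out. With the replicate number as a block, 2692 probe sets were higher and 1932 lower, and 6 other probe sets, 23 neighbours and 41 list genes were called. The numbers do not pair the samples: deviations of same-numbered arrays correlated at -0.319 to 0.37, with 5 of 18 pairs over 0.1, and those of different numbers at -0.27 to 0.368. With 3 arrays a genotype, a rise just over 4-fold was the least stable, and signals near the lowest value cannot be told from background.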
